A study of Mus musculus with 4 samples.

Results

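The 9 genes described here encode cell surface antigens that are used, or have been proposed, as markers or targets in prostate cancer: Psca, Folh1, Steap1, Steap2, Steap4, Epcam, Cd24a, Prom1 and Cd44. They were listed by name from 24319 gene names in RNA-seq tables of normal mouse prostate and of tumors of the TRAMP model. The list was chosen with earlier results of these data known. The Normal group held 2 libraries from prostates of adult wild type F1 males of C57BL/6 and FVB parents, at an age of 22 weeks. The Tumor group held 2 libraries from prostate tumors of F1 males, labelled 24 weeks old (24 to 28 weeks per the protocol), bred from C57BL/6 TRAMP males and FVB females. These males were heterozygous for a transgene that expresses SV40 large T antigen, an oncoprotein that binds p53 and the retinoblastoma protein, from the rat probasin promoter, which is active in prostate epithelium. The groups therefore differ in age as well as in the transgene. Whether the tumors are from separate mice is not stated in words, and p-values here reflect the spread between these libraries, which may be technical.

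Several unrelated protein families share this list. Epcam is an adhesion molecule of epithelial cells, and Cd24a (the mouse CD24) is a small, heavily glycosylated protein held in the membrane by a lipid anchor. Prom1 (CD133) marks membrane protrusions and is used to enrich stem-like cells, and Cd44 is the main receptor for hyaluronan. Psca is a lipid-anchored member of the Ly6 family that was first described in human prostate. Steap2 and Steap4 reduce iron and copper at membranes, whereas Steap1 lacks the part of the protein that binds NADPH. Folh1, known in human prostate cancer as PSMA, is a carboxypeptidase that releases glutamate from folate and from N-acetylaspartylglutamate.

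Levels are given as FPKM (fragments scaled by transcript length and by sequencing depth), divided by a factor for each library so that the median gene has the same level in all 4, and are called scaled FPKM. An estimated 986717 to 1580686 fragments lay behind each library. Of the 13162 genes tested with limma, 18.1% passed an adjusted p of 0.05, 9.85% with higher and 8.27% with lower levels in Tumor. Pbsn, the androgen-driven secretory gene whose rat promoter drives the transgene, was at 7022 and 6280 scaled FPKM in the Normal libraries, was listed at 0 in Tumor 1 and was at 14.2 in Tumor 2. Luminal markers in sum were lower, and neuroendocrine markers higher, in both tumors. The summed scaled FPKM of 9 luminal genes was 10450 and 9783 in Normal, 297 in Tumor 1 and 926 in Tumor 2, and 4 of the 9 passed the test as lower. The sum of 7 neuroendocrine genes was 1.47 and 0.665 in Normal, 625 in Tumor 1 and 1056 in Tumor 2. Its 6 tested members met the filter of FPKM of at least 1 in at least 2 libraries only through the tumors, so their calls are not counted as support. Markers of the seminal vesicle were listed at 0 in all 4 libraries. General epithelial genes also differed between the tumors: Krt8, a keratin of luminal cells, was at 178 and 191 in Normal, at 0.258 in Tumor 1 and at 438 in Tumor 2.

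No antigen passed the test. Of the 9 genes, 8 were tested and 0 were called by limma after Benjamini-Hochberg adjustment over all 13162 genes, against 18.1% of all genes. Unadjusted p-values were under 0.05 for 3 of them (Cd24a, Steap2 and Epcam), against 39.8% of all genes tested. The levels of the groups did not overlap for the same 3 of 8 genes, against 71.1% of all genes. Cd24a and Steap2 were higher in both tumors, a direction of 37.7% of all genes, and Epcam was lower in both, a direction of 33.3%. Steap2 met the filter only through the tumors, where it is higher, so it is not counted as support. For Psca, Prom1, Cd44, Steap1 and Steap4, Tumor 1 lay below both Normal libraries while Tumor 2 lay among them or above them. The median log2 fold change of the 8 genes was -0.83, against 0.07 over all genes tested, and it was -1.74 for Tumor 1 alone and 0.50 for Tumor 2 alone. Set against the Normal pair one at a time, the tumors gave more calls, for antigens as for all genes. Without Tumor 2, 7 antigens were tested, 5 fell (Epcam, Psca, Prom1, Cd44 and Steap1), against 30.8% of all genes, and 1 rose (Cd24a), against 19.7%. Without Tumor 1, 7 were tested, 1 fell (Epcam), against 20%, and 1 rose (Cd24a), against 11.6%. In these fits only the Normal pair gives the spread, and the lone tumor library is assumed to vary like it. The filter was applied to the remaining libraries, so genes seen only in the lone tumor could not enter. This favours lower calls, for antigens and in the shares of all genes alike. Psca and Cd44 entered without Tumor 2 only through the Normal libraries, where they are higher, so their calls are not counted as support. In tissue RNA, fewer cells of a type and less RNA per cell cannot be told apart.

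**Figure D1:**
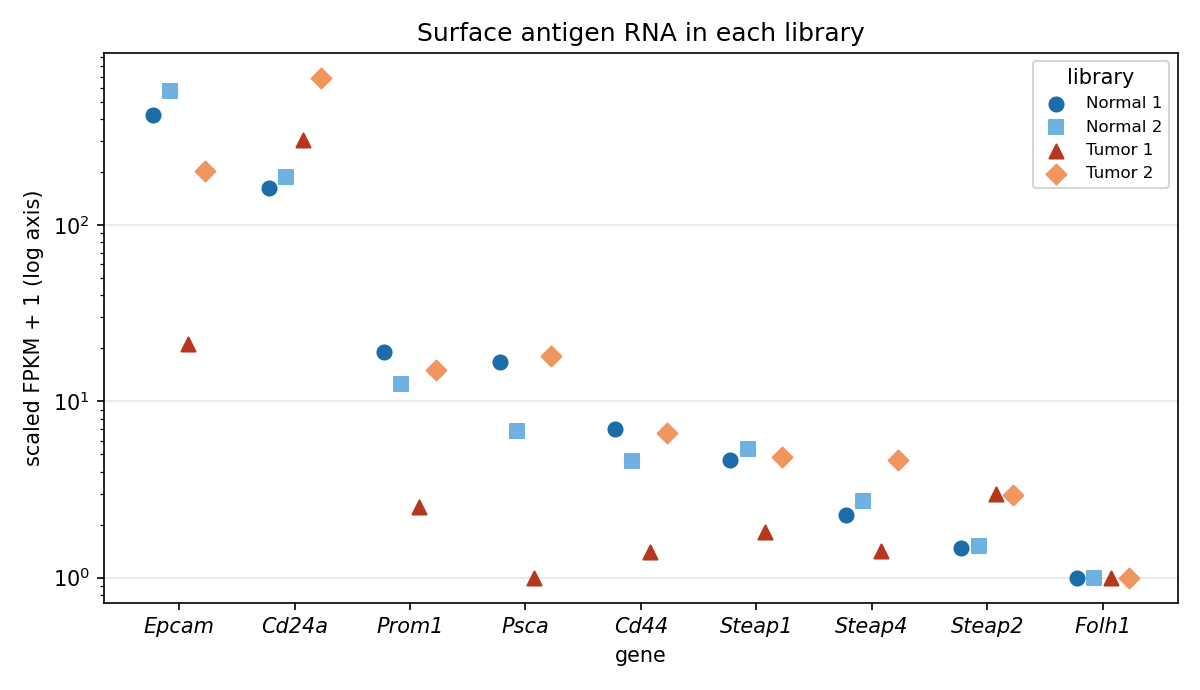
Scaled FPKM plus 1 (log axis) of the 9 surface antigen genes in each of the 4 libraries, with genes ordered by their mean in Normal. Epcam led both Normal libraries at 420 and 581, Cd24a led both tumors at 305 and 686, and Folh1 was listed at 0 throughout.

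Epcam was the most abundant antigen of the normal prostate and was far lower in one tumor than in the other. Its locus is at chr17:87635979-87651127 on the plus strand of mm10 (GRCm38). Its level was 420 and 581 scaled FPKM in the Normal libraries, 20.3 in Tumor 1 and 202 in Tumor 2. Tumor 2 thus lay below both Normal libraries and Tumor 1 further below, at 0.0406 of the Normal mean. About 825 and 1707 fragments lay behind the Normal values, 90 behind Tumor 1 and 764 behind Tumor 2, so counting error is small beside these differences. Tumor minus Normal gave a log2 fold change of -2.91 with a standard error of 1.08, or 7.52-fold lower, and did not pass (limma, adjusted p = 0.116). Against the Normal pair, the log2 fold change was -4.51 without Tumor 2 and -1.21 without Tumor 1. The tumors differed by 3.25 on the log2 scale and the Normal libraries by 0.47, so the Normal spread does not stand for that of the tumors.

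The start region of Epcam is shown because this gene had the highest Normal level and the lowest fold change among the antigens tested. The window runs from 250 bases before to 50 after the RefSeq start, at chr17:87635729-87636028 on the plus strand of GRCm38.p6, and capitals mark CpG, the pair of bases at which DNA is methylated.
Epcam: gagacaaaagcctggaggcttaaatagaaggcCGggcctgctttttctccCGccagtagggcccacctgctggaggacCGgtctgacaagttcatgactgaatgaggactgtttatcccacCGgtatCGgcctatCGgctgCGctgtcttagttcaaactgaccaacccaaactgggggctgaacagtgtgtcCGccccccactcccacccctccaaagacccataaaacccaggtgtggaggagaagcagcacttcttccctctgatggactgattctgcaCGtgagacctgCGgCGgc
The window held 11 CpG, more than 58.6% of 32851 RefSeq windows of the same length, for which the median was 7. The letters CACCTG, an E-box of the kind bound by the repressors Snai1 and Zeb1, were found 2 times when both strands were searched, and 20.2% of all windows hold them at least once. Such a match is a description of the sequence and not a measured binding site. Neither DNA methylation nor factor binding was analysed here.

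Genes that act with EpCAM were also uneven between the tumors. Of 14 partners and proteases, all were tested, and 0 rose and 0 fell (limma, adjusted p over all genes), against 9.85% and 8.27% of all genes, with 4 at an unadjusted p under 0.05, against 39.8%. Their median log2 fold change was -0.93, with -3.30 for Tumor 1 and 0.44 for Tumor 2. Cldn7, a tight junction protein that binds EpCAM, was at 50.3 and 90.4 in Normal, was listed at 0 in Tumor 1 and was at 48.3 in Tumor 2 (adjusted p = 0.243). In Tumor 2, then, it lay just below both Normal libraries. By contrast, the sheddase gene Adam10 was at 19.3 and 17.9 in Normal, 20.3 in Tumor 1 and 27.1 in Tumor 2, above both Normal libraries in each. Other protease genes of the list went both ways. Adam17 was at 3.59 and 4.30 in Normal and 7.54 and 8.01 in the tumors. Bace1 was at 1.92 and 4.70, then 13.2 and 11.1, and Psen2 at 24.4 and 24.9, then 0.690 and 7.31. Without Tumor 2 the log2 fold change of Cldn7 was -5.92. Cldn7 entered that fit only through the Normal libraries, where it is higher, so this is not counted as support.

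Epcam RNA was still detected in the tumor that listed other epithelial genes at or near 0. In Tumor 1, Cdh1, the E-cadherin gene, was listed at 0, after 79.6 and 79.4 in Normal and 39.3 in Tumor 2. Of 9 luminal markers 4 (Pbsn, Cdh1 and Spdef among them) and of 7 basal markers 5 were at 0 in Tumor 1. The ratio of Epcam to Krt8 FPKM, which does not depend on the scaling, was 2.37 and 3.04 in Normal, 78.9 in Tumor 1 and 0.462 in Tumor 2. The Tumor 1 ratio rests on 1 estimated Krt8 fragment. Hoxb13, a homeobox gene of the prostate, was at 580 and 657 in Normal, 295 in Tumor 1 and 160 in Tumor 2, so that a prostate marker was present in both tumors. The part of epithelial content in the Epcam difference was not tested.

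**Figure D2:**
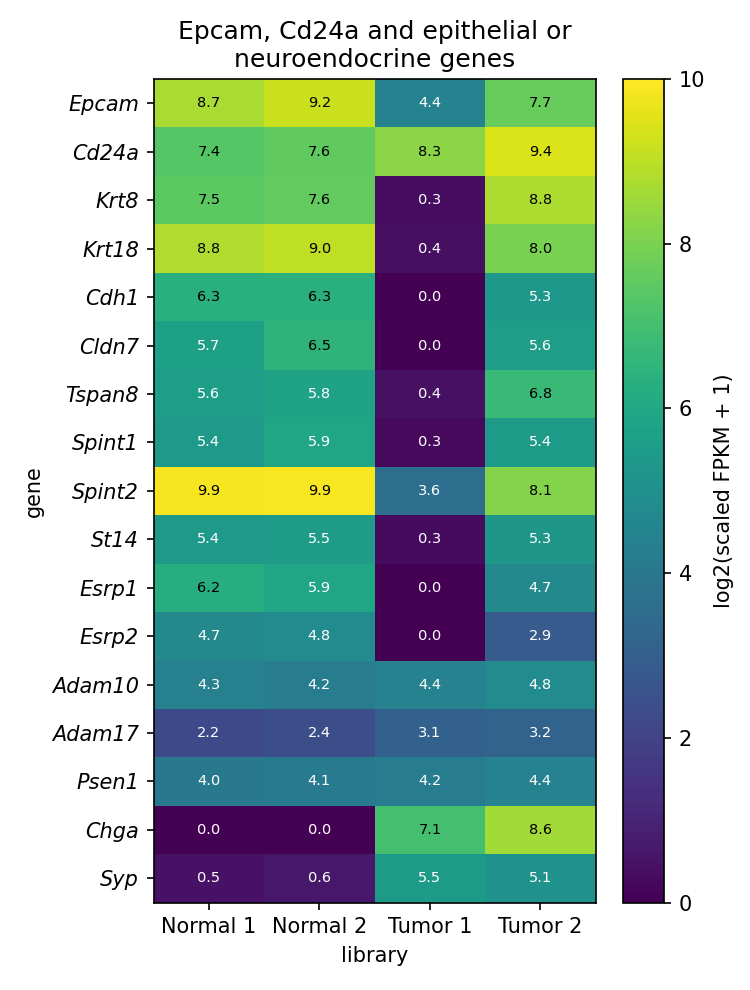
Log2(scaled FPKM + 1) of Epcam, Cd24a, epithelial genes, proteases of EpCAM and 2 neuroendocrine markers in the 4 libraries, with the value printed in each cell. In Tumor 1 most epithelial rows are at or near 0 while Epcam is at 4.4 and Cd24a at 8.3, and in Tumor 2 the keratin and adhesion rows are far above those of Tumor 1.

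Cd24a moved the other way from Epcam and was the most abundant antigen in both tumors. Its locus is at chr10:43579169-43584265 on the plus strand. It was at 163 and 188 scaled FPKM in Normal, 305 in Tumor 1 and 686 in Tumor 2. Both tumors were above both Normal libraries, and Tumor 2 was 2.25 times Tumor 1. Among all genes its rank from the top went from 436 and 415 in Normal to 157 in Tumor 1 and 68 in Tumor 2. A log2 fold change of 1.38 with a standard error of 0.44, or 2.60-fold higher, did not pass (limma, adjusted p = 0.0863). With limma it passed with the FPKM as deposited (2.32, adjusted p = 0.0321). It also passed with a scaling to the FPKM sum that leaves out the top genes (2.04, adjusted p = 0.0396). The log2 fold change was 2.04 without Tumor 1 and 0.81 without Tumor 2. With the FPKM as deposited the median of all genes is itself at 0.86, and 28.0% of all genes were called higher.

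Other cells that carry CD24 could be present in tissue, and their markers were read beside it. The summed scaled FPKM of 10 leukocyte genes was 85.3 and 52.3 in Normal, 30.9 in Tumor 1 and 82.8 in Tumor 2, and most of it in Normal was Cd52 at 77.2 and 46.0. Of 6 members tested, 2 rose and 1 fell, against 9.85% and 8.27% of all genes. Cd68, a macrophage gene, was listed at 0 in Normal and was at 13.1 and 31.2 in the tumors (limma, adjusted p = 0.0208), and Coro1a was at 0 and 0.865 in Normal and 7.09 and 10.01 in the tumors (adjusted p = 0.0317), while Cd52 fell to 2.74 and 11.3 (adjusted p = 0.0406). Both genes that rose entered the test only through the tumors, so their calls are not counted as support. The Cd52 call was lost with the FPKM as deposited, the sum scaling, quantile normalization, pseudocount 0.1 and no filter. That of Coro1a was lost with quantile normalization, pseudocount 0.1 and no filter. Ptprc, the pan-leukocyte gene CD45, was at 0.749 and 0 in Normal, 0.249 in Tumor 1 and 1.56 in Tumor 2. The neuroendocrine sum given above was higher in both tumors together with Cd24a. The part of either cell type in the Cd24a difference was not tested. The Cd24a value is uncertain in one respect: the processed pseudogenes Gm15352 and Gm6212 match its transcript at 92.3% over 259 bases and 96.8% over 218 bases, and neither was analysed here, so reads from them could be counted to Cd24a.

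The leading antigen therefore changed from Epcam to Cd24a. The ratio of Cd24a to Epcam FPKM within a library was 0.388 and 0.324 in Normal, 15 in Tumor 1 and 3.39 in Tumor 2. It is the same under any scaling of whole libraries. Since Cd24a lay above and Epcam below Normal in both tumors, the groups could not overlap in this ratio. Their separation is therefore not counted as further support. Together these 2 genes made up 92.8% to 98.4% of the summed antigen FPKM in each library. That sum was 629 and 797 scaled FPKM in Normal, 330 in Tumor 1 and 934 in Tumor 2, so the tumors lay on either side of Normal. In Normal the order of mean FPKM was Epcam, Cd24a, Prom1, Psca, Cd44, Steap1, Steap4, Steap2 and Folh1, and neighbours from Prom1 to Steap1 overlapped in range. In Tumor it was Cd24a, Epcam, Psca, Prom1, Cd44, Steap1, Steap4, Steap2 and Folh1, and neighbours from Psca to Steap2 overlapped.

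The STEAP genes were all low. Steap1 and Steap2 are neighbours, and their values differed in pattern, on 2 to 8 estimated fragments for Steap1 and 1.9 and 4 for Steap2 in Normal. This difference was not tested. Steap2 lies at chr5:5664829-5694568 and Steap1 at chr5:5736322-5749317, both on the minus strand and 41753 bases apart. Steap4 is 2211154 bases further on, at chr5:7960472-7982213 on the plus strand. Their start regions are shown to compare the neighbours, at chr5:5749268-5749567 for Steap1 and chr5:5694519-5694818 for Steap2, on the minus strand of GRCm38.p6, read 5′ to 3′ with CpG in capitals.
Steap1: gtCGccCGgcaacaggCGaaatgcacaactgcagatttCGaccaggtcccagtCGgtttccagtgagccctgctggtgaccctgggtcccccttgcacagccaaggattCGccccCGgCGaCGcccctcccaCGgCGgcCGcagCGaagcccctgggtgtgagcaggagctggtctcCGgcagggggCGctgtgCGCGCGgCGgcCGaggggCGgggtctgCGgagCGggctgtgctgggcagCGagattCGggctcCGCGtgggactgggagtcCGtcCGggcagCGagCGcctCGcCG
Steap2: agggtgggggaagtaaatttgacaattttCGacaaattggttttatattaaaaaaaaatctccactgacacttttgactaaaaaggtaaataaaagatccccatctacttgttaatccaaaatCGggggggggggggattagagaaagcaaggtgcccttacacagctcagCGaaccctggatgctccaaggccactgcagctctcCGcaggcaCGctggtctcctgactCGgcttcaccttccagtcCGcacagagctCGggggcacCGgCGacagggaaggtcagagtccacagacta
Steap1 held 33 CpG and a GC content of 72.3%, more CpG than 91.4% of windows. The Steap2 window held 10 CpG, more than 56.5% of windows, and 1 match to TATAAA (both strands searched), letters that 13.6% of all windows hold. Steap2 has other RefSeq starts downstream whose windows held 16 and 39 CpG. Which start was used in these tissues is not shown by a value per gene.

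Steap2 was higher in both tumors at a very low level. It was at 0.465 and 0.519 scaled FPKM in Normal, 1.99 in Tumor 1 and 1.95 in Tumor 2. The tumors were nearly equal and both lay about 4 times above the Normal mean, on an estimated 1.9 and 4 fragments in Normal against 40.6 and 32.6 in the tumors. The log2 fold change on the scale with 1 added was 0.99 with a standard error of 0.34 and did not pass (limma, adjusted p = 0.101). It passed with the FPKM as deposited (1.48, adjusted p = 0.0390). Steap2 met the filter only through the tumors, where it is higher, and was not tested when either was left out. Steap2 was the only antigen tested with nearly the same level in both tumors. Cfap69, the gene next to it and named here for its position, was at 0 and 0.207 in Normal, 1.63 in Tumor 1 and 2.08 in Tumor 2 (adjusted p = 0.0543).

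Steap1 was at 3.67 and 4.35 scaled FPKM in Normal, 0.815 in Tumor 1 and 3.83 in Tumor 2. Tumor 2 lay between the Normal libraries and Tumor 1 below them, but only 2 to 8 fragments lay behind any of these values. Its log2 fold change was -0.76 with a standard error of 0.60 (limma, adjusted p = 0.387), and without Tumor 2 it was -1.39. The ratio of Steap1 to Steap2 FPKM was 7.90 and 8.38 in Normal, 0.409 in Tumor 1 and 1.97 in Tumor 2. This ratio rests on few fragments, and Steap2 met the filter only through the tumors. The difference in the ratio is therefore not counted as support. Steap4 was at 1.27 and 1.72 in Normal, 0.422 in Tumor 1 and 3.64 in Tumor 2, on 3 to 22 fragments, and its log2 fold change of 0.05 had a standard error of 0.66 (adjusted p = 0.961). The tumors lay on either side of Normal, and its direction turned with several settings. Steap3, the STEAP protein of red blood cell precursors, was at 0 and 0.741 in Normal and 0.485 and 2.09 in the tumors, too low to be tested.

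Of 17 genes of iron and copper handling, 12 were tested, 1 rose and 1 fell, against 9.85% and 8.27% of all genes, shares that 1 of 12 is close to. Trf, the gene of the iron carrier transferrin, entered the test only through the tumors and was at 0.437 and 0 in Normal and at 10.7 and 20.1 in the tumors, a log2 fold change of 3.71 with a standard error of 0.51 (limma, adjusted p = 0.0223). Slc31a1, the main copper importer, was at 49.95 and 51.7 in Normal and at 11.3 and 16.9 in the tumors, a log2 fold change of -1.80 with a standard error of 0.32 (adjusted p = 0.0319). The transferrin receptor gene Tfrc was at 6.32 and 3.61 in Normal and 13.9 and 7.53 in the tumors and did not pass (adjusted p = 0.214). The median of the 12 genes was -0.49, and it turned to 0.35 with the FPKM as deposited and to 0.11 with the sum scaling, against medians of all genes of 0.07, 0.86 and 0.62. The Slc31a1 call was lost with both of those scalings, with quantile normalization and with no filter on low values, and the Trf call with no filter. Without either Normal library no gene in the whole table was called by limma, although 2434 and 2354 genes had an unadjusted p under 0.05. This holds for every call named here, while the directions of the called list genes did not turn. Without Normal 1 the log2 fold change was 4.08 for Trf (adjusted p = 0.148) and -1.89 for Slc31a1 (0.217), and without Normal 2 it was 3.55 (0.176) and -1.82 (0.231).

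Psca was moderate and variable within both groups. Its locus is at chr15:74714839-74717065 on the plus strand, within a cluster of Ly6 family genes. It was at 15.7 and 5.78 scaled FPKM in Normal, listed at 0 in Tumor 1 and at 17.1 in Tumor 2. The Normal libraries differed by 1.30 on the log2 scale, Tumor 2 lay just above both, and the values rested on 11, 6, 0 and 22.8 estimated fragments. Over both tumors the log2 fold change was -1.32 with a standard error of 1.45 (limma, adjusted p = 0.531). Without Tumor 2 it was -3.25, and without Tumor 1 it turned to 0.83. Psca entered the fit without Tumor 2 only through the Normal libraries, where it is higher, so that value is not counted as support. The excess of Tumor 2 over Tumor 1 was larger than for Psca in 1.09% of the genes tested.

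Of 18 genes of the Ly6 and uPAR family, 10 were tested, 3 of them admitted only through the tumors, and 1 rose and 1 fell, close to the 9.85% and 8.27% of all genes. Their median log2 fold change was 0.84. Ly6h, a Ly6 gene of the brain, was listed at 0 in both Normal libraries and was at 87.4 in Tumor 1 and 52.3 in Tumor 2 (limma, adjusted p = 0.0195). It entered the test only through the tumors, and it also passed with no filter (adjusted p = 0.0484). Cd59a, which blocks the end of the complement cascade, fell from 39.8 and 31.8 in Normal to 1.40 and 5.98 in the tumors, a log2 fold change of -3.16 with a standard error of 0.60 (adjusted p = 0.0345). Its call was lost with the FPKM as deposited, with pseudocount 0.1 and with no filter. Ly6a and Ly6e, like Psca, were low in Tumor 1 and above both Normal libraries in Tumor 2. Ly6a, known as Sca-1 in mouse, was at 22.2 and 18.4 in Normal, 2.74 in Tumor 1 and 110 in Tumor 2 (adjusted p = 0.981). Ly6e, a widely expressed member, was at 182 and 213 in Normal, 16.03 in Tumor 1 and 328 in Tumor 2 (adjusted p = 0.487). Ly6d, a neighbour of Psca, was at 0 and 2.58 in Normal, 0 in Tumor 1 and 11.9 in Tumor 2 (adjusted p = 0.643). Against the Normal pair, the log2 fold change of Ly6a was -2.45 in Tumor 1 and 2.45 in Tumor 2, and that of Ly6e -3.51 and 0.81. The adjusted p of Ly6h was 0.101 without Normal 1 and 0.0808 without Normal 2, and that of Cd59a was 0.205 and 0.199.

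Prom1 and Cd44, both used to enrich stem-like cells, were close to Normal in one tumor and low in the other. Prom1 lies at chr5:43993622-44101736 on the minus strand. It was at 18.2 and 11.6 scaled FPKM in Normal, 1.53 in Tumor 1 and 14.2 in Tumor 2. Tumor 2 lay between the Normal libraries and Tumor 1 was at 0.103 of their mean, on 6.7 estimated fragments against 51.8 to 84.2 in the other libraries. A log2 fold change of -1.33 with a standard error of 0.92 did not pass (limma, adjusted p = 0.329). Without Tumor 2 it was -2.55, and without Tumor 1 it was 0.04. The antisense gene Gm16401 overlaps Prom1 exons, and with the strandedness of the counting unstated their reads cannot be told apart. Prom2, the paralog of Prom1, was at 101 and 110 in Normal, listed at 0 in Tumor 1 and at 16.4 in Tumor 2. It lay below Normal in both tumors and did not pass (limma, adjusted p = 0.0719).

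Cd44 lies at chr2:102811142-102901665 on the minus strand. It was at 5.98 and 3.60 scaled FPKM in Normal, 0.393 in Tumor 1 and 5.62 in Tumor 2. Tumor 2 lay between the Normal libraries, and Tumor 1 was at 0.0821 of their mean on 1.8 estimated fragments. The log2 fold change was -0.90 with a standard error of 0.84 (limma, adjusted p = 0.462). Without Tumor 2 it was -1.92, and without Tumor 1 it turned to 0.28. Cd44 entered the fit without Tumor 2 only through the Normal libraries, where it is higher, so that value is not counted as support. Cd44 is also made by stromal and immune cells, and markers of those differed between the tumors too. The summed level of 6 fibroblast genes was 123 and 99.0 in Normal, 50.4 in Tumor 1 and 376 in Tumor 2, and that of 6 endothelial genes was 7.42 and 3.95 in Normal, 1.56 in Tumor 1 and 38.5 in Tumor 2. The sum of 6 smooth muscle genes was 631 and 586 in Normal, 3.86 in Tumor 1 and 113 in Tumor 2, below Normal in both tumors. These sums, and the leukocyte sum given above, were all lower in Tumor 1 than in Tumor 2. The part of these cell types in the Cd44 difference was not tested. The Normal fibroblast sum was mostly Dcn, at 104 and 84.2, whereas Col1a1 (3.94 and 3.65 in Normal, 12.7 in Tumor 1, 81.0 in Tumor 2) and Col3a1 (7.64 and 4.70, then 16.4 and 112) were above Normal in both tumors. Pdgfra was at 0.293 and 0.992 in Normal, 8.39 in Tumor 1 and 2.68 in Tumor 2, the opposite order of the tumors.

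Partners of CD44 were called in both directions. Of 22 genes of hyaluronan and CD44 biology, 17 were tested, 4 rose and 1 fell, against 9.85% and 8.27% of all genes, with a median log2 fold change of 1.06. Of the 17, 4 entered the test only through the tumors, among them Spp1 and Hmmr, which are higher there. Their calls are not counted as support, although both also passed with no filter (limma, adjusted p = 0.0484 for each). Spp1, which encodes the CD44 ligand osteopontin, was at 0 and 0.517 in Normal and 51.5 and 43.7 in the tumors, a log2 fold change of 5.30 with a standard error of 0.42 (limma, adjusted p = 0.0195). Hmmr, a hyaluronan-binding protein of the mitotic spindle, rose from 0.753 and 0.679 to 48.5 and 34.1, a log2 fold change of 4.603 (adjusted p = 0.0195). The linker proteins that tie CD44 to actin split by member. Ezr (ezrin) fell from 738 and 936 in Normal to 11.1 and 60.1 in the tumors, a log2 fold change of -4.94 with a standard error of 0.79 (adjusted p = 0.0269). Msn (moesin) rose from 1.79 and 0.866 to 17.5 and 13.5 (log2 fold change 2.84, adjusted p = 0.0261), and Rdx (radixin) from 15.2 and 17.7 to 55.9 and 42.3 (1.51, adjusted p = 0.0383). The directions of these 3 linkers did not turn under any scaling run, and their calls were lost with no filter on low values, that of Rdx also without the intensity trend (adjusted p = 0.0530).

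The splicing factors Esrp1 and Esrp2, which keep the epithelial isoforms of Cd44 and other genes, were below Normal in both tumors but did not pass. Esrp1 was at 73.4 and 57.7 in Normal, listed at 0 in Tumor 1 and at 25.3 in Tumor 2 (limma, adjusted p = 0.146). Esrp2 was at 24.9 and 27.0 in Normal, listed at 0 in Tumor 1 and at 6.30 in Tumor 2 (adjusted p = 0.0758). Without Tumor 2 the log2 fold changes were -5.87 for Esrp1 and -4.58 for Esrp2, and without Tumor 1 they were -1.25 and -1.81. Both genes entered the fit without Tumor 2 only through the Normal libraries, where they are higher, so those values are not counted as support. Values per gene do not show which isoforms of Cd44 were present. Without Normal 1 the adjusted p was 0.101 for Spp1, 0.114 for Hmmr, 0.135 for Ezr, 0.170 for Msn and 0.270 for Rdx, and without Normal 2 it was 0.108, 0.117, 0.147, 0.207 and 0.238.

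Folh1 was listed at 0 in all 4 libraries, as were 7247 gene names in all. Its locus is at chr7:86718976-86775864 on the minus strand, and in mouse the gene is best known from kidney and brain. It was neither tested nor given a fold. Its nearest neighbours in the tables, the receptor genes Olfr292, Olfr293 and Vmn2r77, were likewise listed at 0. Naalad2, its closest relative, was listed at 0 in 3 libraries and was at 0.391 in Tumor 2. Of 11 genes of folate and N-acetylaspartylglutamate handling, 9 were tested, 0 rose and 1 fell, against 9.85% and 8.27% of all genes, with 5 at an unadjusted p under 0.05, against 39.8%. Fpgs, which adds the glutamate chain that Folh1 removes from folate, fell from 76.1 and 65.1 in Normal to 8.42 and 13.7 in the tumors, a log2 fold change of -2.60 with a standard error of 0.35 (limma, adjusted p = 0.0219). Its adjusted p was 0.171 without Normal 1 and 0.170 without Normal 2. The list's median of -0.57 turned to 0.22 with the FPKM as deposited, a scaling that moved the median of all genes from 0.07 to 0.86.

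Among 25 other surface antigens, 22 were tested, 3 rose and 2 fell, near the 9.85% and 8.27% of all genes, with a median log2 fold change of 0.07, equal to that of all genes. Kit, a receptor tyrosine kinase, was listed at 0 in both Normal libraries and was at 38.9 and 20.2 in the tumors (limma, adjusted p = 0.0195). Dll3, a Notch ligand and a target in neuroendocrine cancers, was at 0 and 0.643 in Normal and 6.53 and 5.21 in the tumors (log2 fold change 2.42, adjusted p = 0.0330). Both entered the test only through the tumors, and Kit also passed with no filter (adjusted p = 0.0484). The zinc transporter gene Slc39a6 rose from 4.81 and 7.88 to 20.3 and 25.4 (1.72, adjusted p = 0.0461). The calcium channel gene Trpv6 fell from 124 and 91.3 to 0.455 and 2.50 (-5.57, adjusted p = 0.0195), and the choline transporter gene Slc44a4 from 76.2 and 87.1 to 0 and 5.67 (-5.00, adjusted p = 0.0336). Dll3 and Slc39a6 lost their calls under quantile normalization, both and Slc44a4 with pseudocount 0.1 and with no filter. Without Normal 1 the adjusted p was 0.116 for Kit, 0.259 for Dll3, 0.310 for Slc39a6, 0.119 for Trpv6 and 0.170 for Slc44a4, and without Normal 2 it was 0.126, 0.1995, 0.226, 0.117 and 0.188.

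A second set of antigens missed the threshold. Ncam1, a neural adhesion molecule, was at 5.53 and 2.96 in Normal and 41.5 and 15.4 in the tumors (limma, adjusted p = 0.0554). Cd276, the immune checkpoint protein B7-H3, was at 2.19 and 1.06 in Normal and 7.48 and 6.84 in the tumors (adjusted p = 0.0600). Both passed with the FPKM as deposited (adjusted p = 0.0258 for Ncam1 and 0.0260 for Cd276) and with the sum scaling (0.0362 and 0.0354). Tmprss2, an androgen-driven protease of the luminal surface, was at 53.5 and 41.8 in Normal, listed at 0 in Tumor 1 and at 15.3 in Tumor 2 (adjusted p = 0.117). Hpn (hepsin) was at 1.21 and 0.818 in Normal and 0 and 0.946 in the tumors and was too low to be tested. The log2 fold change of Cd276 was 1.69 without Tumor 2 and 1.64 without Tumor 1. Tmprss2 could enter the fit without Tumor 2 only through the Normal libraries, where it is higher.

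The gap between the tumors was wide for most antigens. Tumor 2 exceeded Tumor 1 by 4.18 on the log2 scale for Psca, 3.25 for Epcam, 2.59 for Prom1 and 2.25 for Cd44. Of the genes tested, 1.09%, 2.36%, 4.33% and 6.00% had a larger gap of the same sign, and the median gap of all genes was -0.06. The gap was 1.71 for Steap4, 1.41 for Steap1 and 1.17 for Cd24a, exceeded by 9.55%, 12.5% and 15.5% of genes. Steap2 was the exception at -0.02. With 1 library for each tumor, this gap has no replicate error and was not tested.

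**Figure D3:**
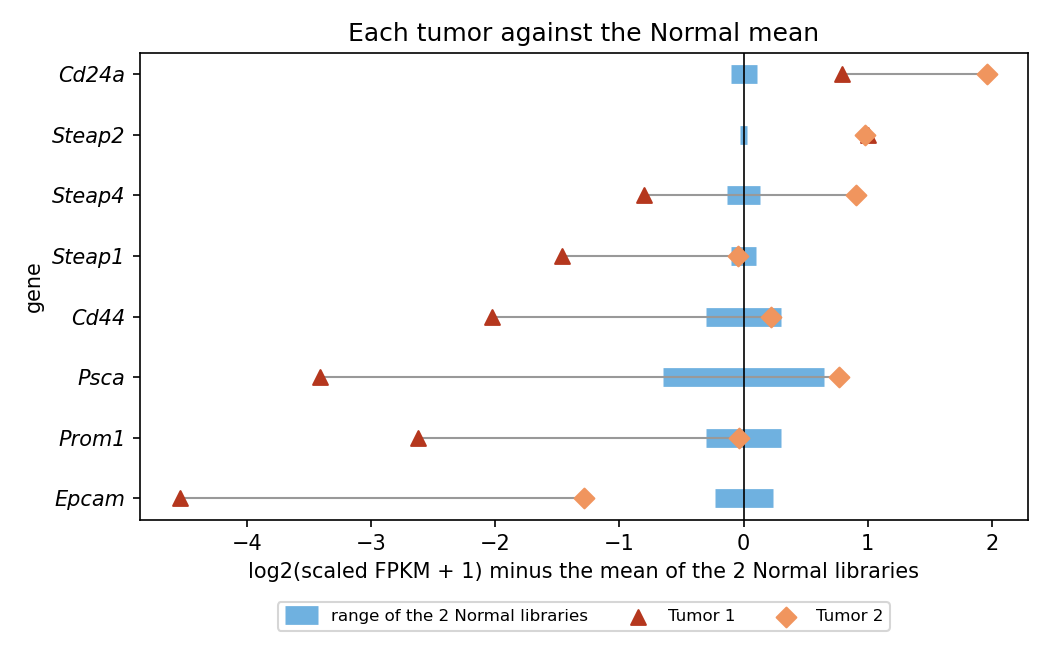
Log2(scaled FPKM + 1) of each tumor minus the mean of the 2 Normal libraries for the 8 antigens tested, with the range of the Normal libraries as a bar. Tumor 1 lies below Tumor 2 for all but Steap2, where they nearly coincide, and Epcam spans -4.54 to -1.28.

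The FPKM as deposited and the sum scaling moved all antigens upward, while quantile normalization moved them in both directions. With quantile normalization the log2 fold change of Cd24a was 2.16, and Epcam and Prom1 also moved upward. The other antigens tested moved downward, Steap2 from 0.99 to 0.53. With the FPKM as deposited, log2 fold changes were higher than in the main scaling for each of the 8 genes. Of the 8, 2 passed as higher (Cd24a and Steap2), against 28.0% of all genes. Steap2 met the filter only through the tumors, so its call is not counted as support. With the sum scaling 1 of 8 passed as higher (Cd24a), against 19.3% of all genes. No antigen passed as lower under either scaling. Between the main scaling and the FPKM as deposited, the median of all genes moved from 0.07 to 0.86 and Cd24a from 1.38 to 2.32.

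**Figure D4:**
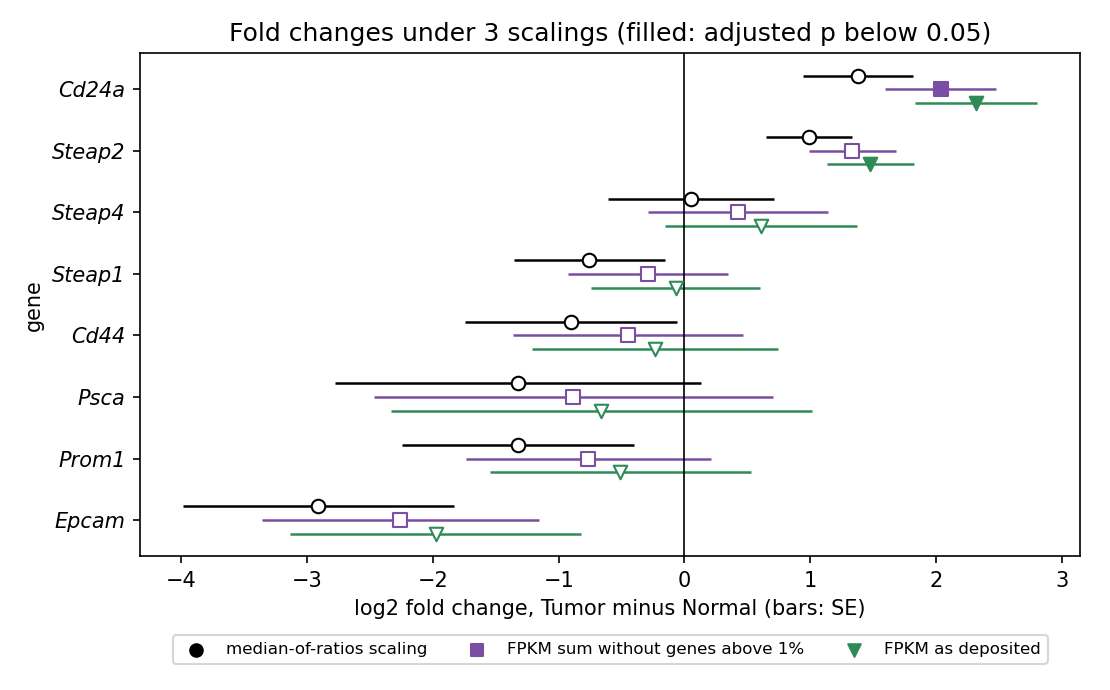
Log2 fold change (Tumor minus Normal) with its standard error for the 8 antigens under 3 scalings of the libraries, filled where the adjusted p was below 0.05. Cd24a goes from 1.38 to 2.04 and 2.32 and Epcam from -2.91 to -2.26 and -1.98 as the scaling moves all genes upward.

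Among genes with a mean of at least 5 scaled FPKM, those nearest in pattern over the 4 libraries were sought for each antigen, by the distance between centred log2 values. Lcn2 and Pglyrp1 lay nearest to Psca, at distances of 0.434 and 0.456. Capn1, H2-Q2 and Ephx1 lay nearest to Epcam (0.0859 to 0.124), and Ift57, N4bp3 and Apoe to Cd24a (0.0858 to 0.179). Mfap3, Ddx1 and Ncor1 lay nearest to Steap2 (0.0333 to 0.0442) and Ppap2a, Nfe2l2 and Sppl2a to Steap1 (0.0984 to 0.116). Yes1, Pdxk and Tnip1 lay nearest to Steap4 (0.184 to 0.240), Ctso, Gpx2 and Pdlim5 to Prom1 (0.0408 to 0.158), and Klhl5, Ehd4 and Casp8 to Cd44 (0.220 to 0.299). With 4 libraries, many genes share any given pattern, and the likeness is a description.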

How the data were processed

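RNA was sequenced in 2 Normal and 2 Tumor libraries. The authors deposited one Cufflinks table per library that gives FPKM by gene and its confidence bounds. Per the submitters' processing notes, the build is mm10 and the tools include Cuffdiff 2.1.1, Cufflinks 2.1.1, TopHat2 2.0.8 and Trim Galore. The sources used here state no settings, annotation or strand use. Of 24883 rows, 27 whose names had become dates were left out and 817 with repeated names were summed. The tables hold no counts. Fragments were estimated from interval widths, taken as 2 SD of a Poisson count on each side, and cover counting error only; 71.0% to 72.5% of low values lay within 0.1 of a whole number. Depth is the sum of these estimates.

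FPKM were divided by a median-of-ratios factor per library (0.793 and 0.689 for Normal, 1.34 and 1.50 for Tumor) over 11469 genes above 0 in all. Genes with FPKM of at least 1 in at least 2 libraries were tested on log2(scaled FPKM + 1) with limma 3.58.1 (R 4.3.3, intensity trend, two-sided, Benjamini-Hochberg over 13162 genes). The added 1 understates changes of low genes. Tables were made with Python 3.11.15 and pandas 2.3.3, and the fit was tested on simulated data. Alternatives were other scalings, pseudocount 0.1, no filter, no trend and leaving out each library.

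The members, gene lists and tests were chosen with earlier results of these data known. Named genes were all members, preset relatives, the 3 largest called changes per direction in each list, markers beside a result and the 3 nearest patterns; Cfap69, Rdx, Tfrc, Adam10, Olfr292, Olfr293 and Vmn2r77 were added after their values were seen, and 2 genes that the rule takes are not reported here. Promoter windows are from RefSeq (GRCm38.p6), found for 7 of the 9 members.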

Additional observations from a re-analysis of the deposited data

How the results depend on the processing

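The number of genes called depended on the scaling and on single libraries. Against 1296 higher and 1088 lower genes, there were 3681 and 427 with the FPKM as deposited, 2537 and 554 with the sum scaling, and 245 and 249 with no filter on low values. Leaving out one library gave 0 to 2170 higher and 0 to 3405 lower genes, with 0 without either Normal library. Antigens called higher went from 0 to 2 with the FPKM as deposited and 1 with the sum scaling; leaving out one library gave 0 to 1 higher and 0 to 5 lower. The fits with a lone tumor library could not admit genes seen only in that tumor, which favours lower calls. In the 6 gene lists, 9 of 83 genes tested rose and 6 fell, close to the 9.85% and 8.27% of all genes. With the FPKM as deposited 21 of the 83 rose, against 28.0% of all genes. With the sum scaling 18 rose, against 19.3%. With no filter, 4 of 101 list genes rose and 2 fell, against 245 and 249 of 17072 genes. Leaving out one library gave 0 to 20 higher and 0 to 33 lower. Leaving out one library, the log2 fold change ranged from -3.25 to 0.83 for Psca, -1.39 to 0.011 for Steap1, -2.55 to 0.037 for Prom1, -1.92 to 0.28 for Cd44 and -0.75 to 0.93 for Steap4. The sign turned without Tumor 1 for the first 4, and for Steap4 without Normal 1 (-0.13), without Tumor 2, with pseudocount 0.1 (-0.17) and with quantile normalization (-0.29). The cause was not tested. Epcam, Cd24a and Steap2 kept their direction in every setting in which they were tested. No paired analysis was possible because the labels give no replicate numbers that pair the libraries. Fragment estimates under 10 limit what can be said of Steap1, of Steap2 and Steap4 in Normal, of Psca in Normal 2, and of Tumor 1 for Psca, Prom1, Cd44 and Steap4.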
